A study of Gallus gallus with 24 samples.

Results

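The 3 MYC family genes MYC, MYCN and MYCL, the RNA-binding protein genes LIN28A and LIN28B, and the pluripotency factors KLF4 and SALL4 were followed in explants of chicken retinal pigment epithelium (RPE), the pigmented layer behind the retina. These 7 genes were chosen by name, and their rows were taken by gene symbol from a table of 24356 genes. A row was found for 6 of the 7. KLF4 was not analysed here. MYC (ENSGALG00000033631), MYCN (ENSGALG00000016462), MYCL (ENSGALG00000024047), LIN28B (ENSGALG00000026761) and SALL4 (ENSGALG00000041365) had a mean of at least 10 normalized read counts over all libraries and were tested. LIN28A (ENSGALG00000036022) lay under that mean, so it was left out of the main tests.

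MYC family proteins bind DNA together with the partner MAX and promote ribosome production, metabolism and cell division, and MYCN is the member best known from neural and retinal progenitor cells. LIN28 proteins bind the precursors of the let-7 microRNAs and block their maturation, which keeps let-7 targets such as HMGA2 and the IGF2BP genes available in embryonic cells. SALL4 and KLF4 are zinc finger transcription factors of pluripotent stem cells, and KLF4, MYC and LIN28 have served as reprogramming factors. In the embryonic chick, fibroblast growth factor 2 (FGF2) can turn RPE into neural retina, which makes these genes of interest during that change of fate.

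Explants came from specific pathogen free chicken embryos at embryonic day 4 and were cultured for 24 or 48 h. They received both dichloroacetate (DCA, 20 mM) and FGF2 (10 ng/ml), FGF2 alone, DCA alone, or maintenance medium without either, which served as control. DCA inhibits the pyruvate dehydrogenase kinases and so favours mitochondrial oxidation of pyruvate. Every group held 3 biological replicates, each a pool of 3 explants, which made 24 poly(A) RNA libraries in 8 groups. The groups differed in the added agents and in time.

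Library depth ran from 32818162 to 72724381 reads. The third replicates of FGF2 were the deepest, with 72724381 reads at 48 h and 69011298 at 24 h, and the other libraries held at most 47066340. Replicates correlated across genes at Pearson r of 0.959 to 0.980. All 12 RPE markers on the list were above 0 in all 8 groups. Markers of other cells were present too, so in these bulk samples fewer cells of a type and less RNA per cell cannot be told apart.

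At 48 h, FGF2 explants stood above control explants for MYCN and LIN28B, while MYC, MYCL and SALL4 did not pass the test between those groups. DCA explants stood above control explants for MYC, MYCL and SALL4. For MYCL and SALL4 the replicates of DCA and control overlapped, and neither gene passed in a fit of those groups alone. When DCA was added to FGF2, all 5 tested genes changed: MYC and SALL4 rose, and MYCN, LIN28B and MYCL fell. A gene was called where the adjusted p of limma, fitted over all 15001 tested genes, was under 0.05. For FGF2 against control, 2 of 5 members were called at 48 h, when 54.6% of all tested genes were called, and 3 of 5 at 24 h, against 29.8%. For DCA against control, 3 of 5 were called at 48 h, against 34.1%, and 1 of 5 at 24 h, against 20.1%. For DCA+FGF2 against FGF2, 5 of 5 were called at 48 h, against 52.8%, and 3 of 5 at 24 h, against 35.8%. These backgrounds are high: the count for FGF2 at 48 h was under its background, and 5 of 5 lay furthest above. Comparisons that use the same control or FGF2 libraries share those samples, so their values are given side by side.

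**Figure D1:**
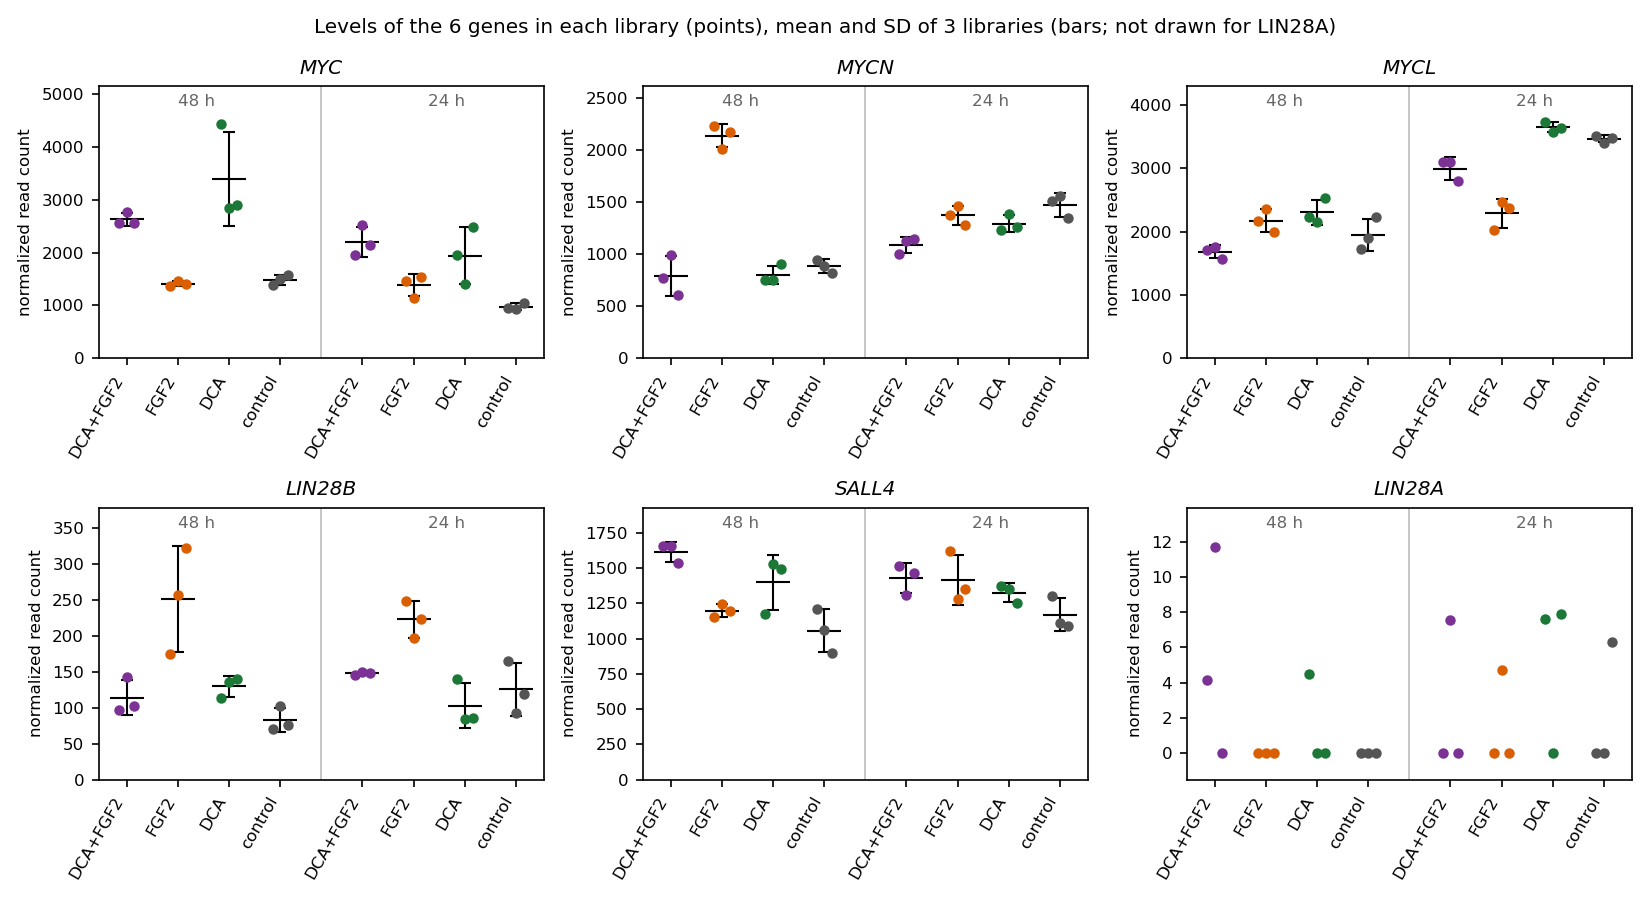
Normalized read counts (y axis, linear, from 0 except for LIN28A, whose axis starts just under 0) of 6 genes in every library, by treatment, with 48 h on the left and 24 h on the right of each panel. Points are libraries and bars the mean and SD of 3 libraries: MYC is highest in DCA explants at 48 h, MYCN is highest in FGF2 explants at 48 h, and LIN28A is at or close to 0 throughout.

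MYC was higher wherever DCA was present, at both times and both with and without FGF2. At 48 h, MYC had 4425, 2839 and 2908 normalized counts in DCA explants, against 1386, 1496 and 1570.4 in control explants. In the presence of FGF2 it had 2565, 2773 and 2555 in DCA+FGF2 explants at 48 h, against 1363, 1454 and 1409 in FGF2 explants. The groups did not overlap in either pair, and the first DCA replicate stood far above the other DCA libraries. The difference of DCA from control at 48 h was 1.16 ± 0.17 on the log2 scale (± SE, limma adjusted p = 2.1e-05). Without that first DCA replicate it was 0.95 (limma adjusted p = 0.00019). The difference of DCA+FGF2 from FGF2 at 48 h was 0.90 ± 0.17 (adjusted p = 0.00011).

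At 24 h, MYC had 1948, 1397 and 2477 normalized counts in DCA explants, against 954, 924 and 1045 in control explants. It had 1961, 2519 and 2140.5 in DCA+FGF2 explants, against 1464, 1146 and 1531 in FGF2 explants. All libraries with DCA lay above all of their counterparts without it, although the DCA replicates were widely spread. The log2 differences were 0.96 ± 0.17 for DCA against control (adjusted p = 0.00039) and 0.68 ± 0.17 for DCA+FGF2 against FGF2 (adjusted p = 0.0032). The effect of DCA with FGF2 minus that without FGF2, the interaction, was -0.26 at 48 h (95% interval -0.75 to 0.23, adjusted p = 0.45). At 24 h that interaction was -0.28 (95% interval -0.77 to 0.22, adjusted p = 0.62). Neither passed the test, and the intervals leave room for a smaller as well as a larger response to DCA in FGF2 explants.

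FGF2 by itself was not called for MYC at 48 h and was called at 24 h. At 48 h its mean was 1409 ± 45.7 in FGF2 explants and 1484 ± 93.0 in control explants (SD, n = 3 each), a log2 difference of -0.07 ± 0.17 (limma adjusted p = 0.74). At 24 h the means were 1380.1 ± 206 in FGF2 explants and 974 ± 63.3 in control explants, and the difference of 0.49 ± 0.17 passed the test (adjusted p = 0.03). That call was lost without the first or the second control replicate, or without the first or the third FGF2 replicate (highest adjusted p = 0.12). The FGF2 effect at 48 h minus that at 24 h was -0.57 for MYC (adjusted p = 0.076), and it was called in a fit of those groups alone (0.0083) and without the second FGF2 replicate at 24 h (0.04). With both agents, MYC exceeded control by 0.83 ± 0.17 at 48 h (adjusted p = 0.00027) and by 1.17 ± 0.17 at 24 h (adjusted p = 8.6e-06).

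In order of group means, MYC was highest in DCA at 48 h, followed by DCA+FGF2 at 48 h, DCA+FGF2 at 24 h, DCA at 24 h, control at 48 h, FGF2 at 48 h, FGF2 at 24 h and control at 24 h. Neighbours from DCA+FGF2 at 24 h down to FGF2 at 24 h overlapped in their replicates. DCA at 48 h, DCA+FGF2 at 48 h and control at 24 h did not overlap with their neighbours. Between 48 h and 24 h, MYC rose in DCA explants by 0.81 (adjusted p = 0.001; 0.066 in a fit of those groups alone) and in control explants by 0.61 (adjusted p = 0.015). The control call was lost without the second control replicate at 24 h (0.053) or the third at 48 h (0.057).

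MYCN behaved unlike MYC: at 48 h it was high in FGF2 explants and lower in the other groups. It had 2234, 2013 and 2168 normalized counts in FGF2 explants at 48 h, against 947, 888 and 816 in control explants. With DCA added it had 771, 992 and 608 in DCA+FGF2 explants, against the FGF2 values just given. With DCA alone it had 752, 753 and 901, against the same control values. Each FGF2 library at 48 h lay above every other library of the study, and the DCA+FGF2, DCA and control groups overlapped.

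The FGF2 effect on MYCN at 48 h was 1.28 ± 0.13 (limma adjusted p = 2e-08), a ratio of means of 2.42. Adding DCA to FGF2 changed MYCN by -1.46 ± 0.13 (adjusted p = 3.7e-09). DCA alone differed from control by -0.14 (95% interval -0.40 to 0.12, adjusted p = 0.41). The interaction was -1.32 ± 0.18 (adjusted p = 1.1e-05), so the DCA effect on MYCN differed between explants with and without FGF2. DCA+FGF2 differed from control by -0.19 (95% interval -0.45 to 0.07, adjusted p = 0.22), and by -0.37 without the second DCA+FGF2 replicate (adjusted p = 0.01).

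At 24 h the FGF2 group did not stand apart for MYCN. MYCN had 1374, 1458 and 1282 normalized counts in FGF2 explants at 24 h, against 1509, 1559 and 1345 in control explants. It had 1003, 1124 and 1143 in DCA+FGF2 explants and 1233, 1384 and 1258 in DCA explants. The FGF2 and control groups overlapped, and the DCA+FGF2 libraries were the lowest of the 24 h groups. FGF2 differed from control by -0.10 (adjusted p = 0.61). DCA+FGF2 fell below FGF2 by a log2 difference of -0.33 (adjusted p = 0.044), a call that held in only 1 of 6 fits with a library left out and not without the filter on low counts (adjusted p = 0.06). DCA+FGF2 stood below control by -0.43 ± 0.13 (adjusted p = 0.0084). The FGF2 effect at 48 h minus that at 24 h was 1.38 ± 0.18 (adjusted p = 7.2e-06).

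With time, MYCN in control explants fell by 0.73 (48 h against 24 h, limma adjusted p = 0.00033) and in DCA explants it fell by 0.69 (adjusted p = 0.00032). It rose in FGF2 explants by 0.64 (adjusted p = 0.00035). In DCA+FGF2 explants it fell by 0.49 (adjusted p = 0.0048; 0.075 in a fit of those groups alone). Of the 5 members, 3 were called over time in control explants, against 17.0% of all tested genes, 1 in FGF2 explants, against 37.5%, 3 in DCA explants, against 25.4%, and 2 in DCA+FGF2 explants, against 33.7%. In order of means, MYCN ran from FGF2 at 48 h through control, FGF2, DCA and DCA+FGF2 at 24 h to control, DCA and DCA+FGF2 at 48 h. The neighbours among control, FGF2 and DCA at 24 h overlapped, as did those among the last 3 groups.

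At 48 h, marker genes of several cell types also differed in the comparisons in which MYCN was called. The summed level of the 12 RPE markers was 58089.9 to 85884 normalized counts in FGF2 explants at 48 h, against 239416 to 255472 in control explants, and 12 of 12 were called lower. The sum of the 10 retinal progenitor markers was 107076 to 111754 in FGF2 explants, against 18979.8 to 22777 in control explants, with 10 of 10 higher. With DCA added, progenitor markers summed to 63202 to 72899 in DCA+FGF2 explants at 48 h, 8 of 10 lower than in FGF2 explants and none higher. The 8 retinal neuron markers summed to 4196 to 5322 in DCA+FGF2, 16301 to 18516 in FGF2, 2348 to 2638 in DCA and 3559.7 to 3755 in control explants at 48 h, and POU4F2 was at 0 in DCA and in control libraries. Periocular mesenchyme markers summed to 47372 to 73861 in DCA+FGF2 and 20380.4 to 22095 in FGF2 explants, against 72499.6 to 78198 in control explants, and TCF21 was at 0 in the FGF2 libraries. Endothelial markers (7 of 7) and blood and macrophage markers (8 of 8) were lower in FGF2 than in control explants. In that comparison 26.9% of all genes were higher and 27.7% lower. Between DCA+FGF2 and FGF2 at 48 h, 25.4% of all genes were higher and 27.4% lower. Against control at 48 h, DCA+FGF2 explants, in which MYCN was not called, had 8 of 10 progenitor markers higher. In them 10 of 12 RPE markers were lower (27.1% higher and 27.4% lower among all genes). Of 10 mesenchyme markers 9 were lower than in control explants and 0 higher, with a median log2 difference of -1.77. Of 7 tested retinal neuron markers 4 were higher and 1 lower, with a median of 1.80. The sums of these 2 lists do not show this, since genes with high counts weigh most in a sum. At 24 h, 9 of 10 progenitor markers were higher with FGF2 (15.5% of all genes), while MYCN was not called. The part of these markers in the MYCN result was not tested.

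MYCL was lower in FGF2 explants than in control explants at 24 h, and at 48 h it was lower in DCA+FGF2 explants than in FGF2 explants. It had 2028, 2465 and 2377 normalized counts in FGF2 explants at 24 h, against 3511, 3403 and 3479.99 in control explants. DCA+FGF2 explants at 24 h had 3093, 3101 and 2792, and DCA explants had 3729.8, 3575 and 3642. None of these 4 groups overlapped at 24 h, and their order was DCA, control, DCA+FGF2 and FGF2. MYCL differed by -0.60 ± 0.09 between FGF2 and control (limma adjusted p = 2.6e-05), by 0.39 ± 0.09 between DCA+FGF2 and FGF2 (adjusted p = 0.0021) and by 0.07 ± 0.09 between DCA and control (adjusted p = 0.62). The interaction at 24 h did not pass (0.32 ± 0.13, adjusted p = 0.2).

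By 48 h the groups lay closer together. MYCL had 1715, 1763 and 1562 normalized counts in DCA+FGF2 explants at 48 h, against 2163, 2359 and 1997 in FGF2 explants. DCA explants had 2236, 2153 and 2529, against 1717, 1895 and 2228 in control explants. The DCA+FGF2 libraries lay under all FGF2 libraries, whereas DCA and control overlapped. Adding DCA to FGF2 changed MYCL by -0.37 ± 0.09 (adjusted p = 0.0018), in the direction opposite to 24 h. DCA alone gave 0.25 ± 0.09 (adjusted p = 0.04), which was not called without the filter on low counts (0.052), in a fit of the 2 groups alone (0.14) or in 4 of 6 fits with a library left out. The interaction at 48 h was -0.62 ± 0.13 (adjusted p = 0.001).

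FGF2 differed from control by 0.16 ± 0.09 at 48 h (adjusted p = 0.14; 0.02 without the third control replicate, where the difference was 0.27), and the FGF2 effect at 48 h minus that at 24 h was 0.77 ± 0.13 (adjusted p = 0.00013). DCA+FGF2 differed from DCA by -0.46 ± 0.09 at 48 h (adjusted p = 0.00054) and by -0.29 ± 0.09 at 24 h (adjusted p = 0.025). Against control, DCA+FGF2 stood at -0.21 ± 0.09 at 48 h (adjusted p = 0.062; 0.049 by edgeR and 0.016 by limma without the first control replicate) and at -0.21 ± 0.09 at 24 h (adjusted p = 0.068; 0.038 in a fit of those groups alone). The 24 h call between DCA+FGF2 and DCA was lost without the first or the third DCA replicate or the third DCA+FGF2 replicate (highest adjusted p = 0.11). MYCL was the 1 member of 5 called between DCA+FGF2 and DCA at 48 h, against 33.9% of all tested genes, and likewise at 24 h, against 25.0%. Over time MYCL fell by 0.84 in control explants (adjusted p = 2.3e-06), fell by 0.67 in DCA explants (adjusted p = 1.6e-05) and fell by 0.83 in DCA+FGF2 explants (adjusted p = 8.8e-07). In FGF2 explants the difference between 48 h and 24 h was -0.07 (adjusted p = 0.57). The 4 groups from DCA at 48 h through FGF2 at 24 h and FGF2 at 48 h to control at 48 h overlapped as neighbours in the order of means, as did control and DCA+FGF2 at 48 h.

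**Figure D2:**
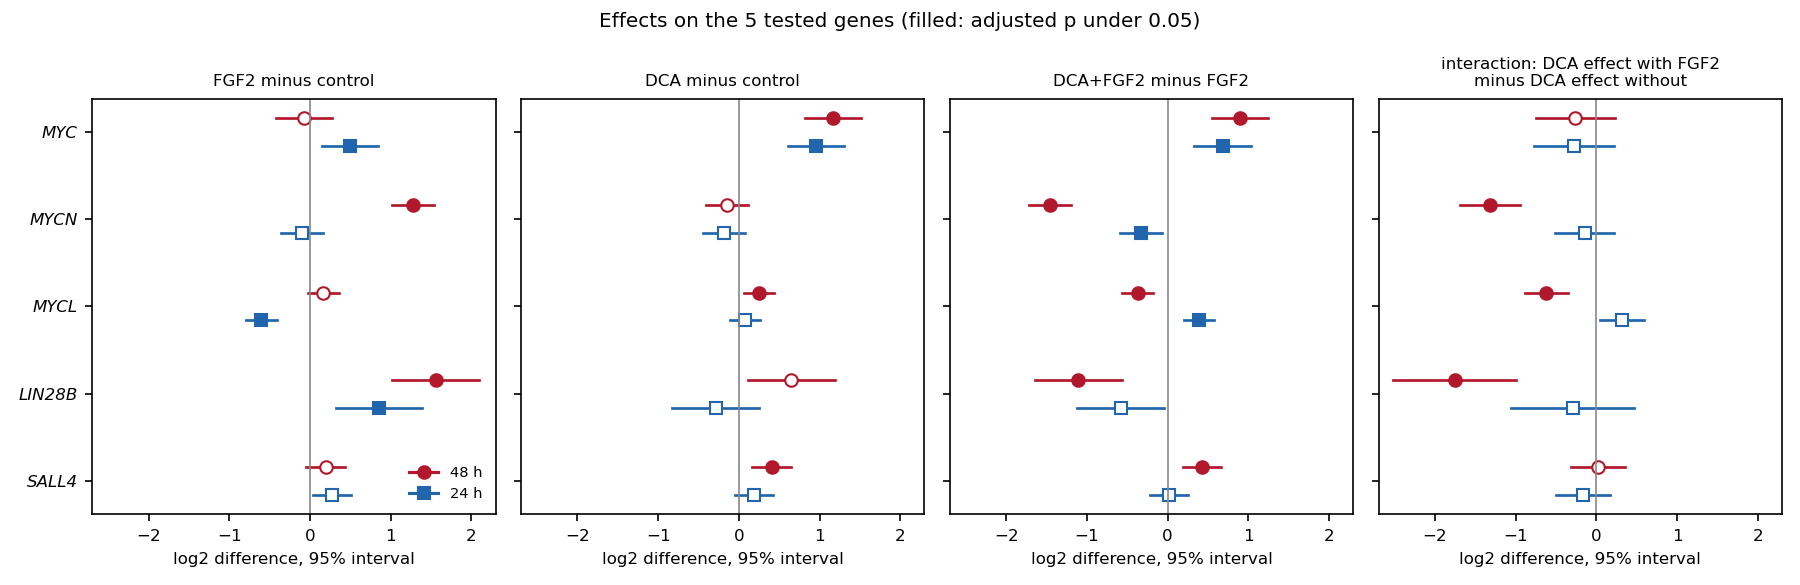
Log2 differences of 5 tested genes (rows) with 95% intervals (x axis) for FGF2 minus control, DCA minus control, DCA+FGF2 minus FGF2 and the interaction, with circles for 48 h and squares for 24 h. Filled symbols have a limma adjusted p under 0.05: MYC lies to the right in both DCA comparisons, and MYCN and LIN28B lie to the right for FGF2 minus control and to the left for DCA+FGF2 minus FGF2 at 48 h.

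LIN28B, the LIN28 gene that was readily detected, was higher in FGF2 explants than in control explants at both times. At 48 h it had 174, 257 and 322 normalized counts in FGF2 explants, against 70.7, 103 and 75.8 in control explants. It had 97.1, 143 and 103 in DCA+FGF2 explants, against those FGF2 values. It had 113, 136 and 139 in DCA explants, against those control values. Every FGF2 library lay above every DCA+FGF2, DCA and control library at 48 h, and the FGF2 replicates themselves were widely spread.

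The FGF2 effect on LIN28B at 48 h was 1.56 ± 0.26 (limma adjusted p = 2.7e-05), a ratio of means of 3.02. Adding DCA to FGF2 changed it by -1.11 ± 0.26 (adjusted p = 0.0011). DCA alone gave 0.65 ± 0.26, which missed the threshold (adjusted p = 0.058) but passed it without the second control replicate (0.039). The interaction was -1.75 ± 0.37 (adjusted p = 0.001). Together with MYCN and MYCL, LIN28B made up the 3 of 5 members with a called interaction at 48 h, all lower, against 30.1% of all tested genes in either direction and 15.0% lower. At 24 h, 0 of 5 members had a called interaction by limma, edgeR or DESeq2, against 2.92% of genes by limma, and 1 (MYCL) had an unadjusted p under 0.05.

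At 24 h LIN28B had 249, 197 and 223 normalized counts in FGF2 explants, against 165, 92.3 and 119 in control explants. DCA+FGF2 explants had 146, 149.8 and 149, and DCA explants had 139.8, 83.8 and 85.4. The FGF2 libraries lay above all others at this time, and DCA and control overlapped. FGF2 exceeded control by 0.85 ± 0.26 (adjusted p = 0.015), but not past the threshold without the second control replicate (0.096) or the first FGF2 replicate (0.066). DCA+FGF2 differed from FGF2 by -0.58 (95% interval -1.12 to -0.04, adjusted p = 0.088; 0.041 in a fit of those groups alone). No change over time was called for LIN28B by limma in any of the 4 treatments, although in control explants its unadjusted p was under 0.05, and the FGF2 effect at 48 h minus that at 24 h was 0.70 ± 0.37 (adjusted p = 0.16). In order of means the FGF2 groups stood first, at 48 h and then at 24 h, and overlapped each other. DCA+FGF2 at 24 h came next and did not overlap its 2 neighbours in that order. Its values lay within those of control at 24 h, from which it differed by 0.28 ± 0.26 (limma adjusted p = 0.42). The remaining 5 groups (DCA at 48 h, control at 24 h, DCA+FGF2 at 48 h, DCA at 24 h and control at 48 h) overlapped from neighbour to neighbour.

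The effect of FGF2 differed between 48 h and 24 h for 2 of 5 members, MYCN and MYCL, against 30.2% of all tested genes. The effect of DCA differed between the times for 0 of 5 by limma, edgeR or DESeq2, against 4.91% of genes by limma, with 1 (LIN28B) at an unadjusted p under 0.05. The marker shifts given for FGF2 against control and for DCA+FGF2 against FGF2 at 48 h ran beside the LIN28B result as well. Between DCA+FGF2 and control at 48 h, LIN28B was not called (0.45 ± 0.26, limma adjusted p = 0.15). At 24 h, retinal progenitor markers summed to 63564 to 68641 normalized counts in FGF2 explants, against 21089.5 to 23723 in control explants. Of the 10, 9 were higher, against 15.5% of all genes. RPE markers summed to 182917 to 246785 in FGF2 explants, against 195452 to 229639 in control explants, and mesenchyme markers to 21639 to 30768, against 46976 to 58152. The part of these markers in the LIN28B and MYCL results was not tested.

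LIN28A, the paralog best known from pluripotent cells, was barely detected. It had 4.13, 11.7 and 0 normalized counts in DCA+FGF2 explants at 48 h and 4.48, 0 and 0 in DCA explants. All FGF2 and all control libraries at 48 h were at 0. At 24 h it had 0, 7.54 and 0 in DCA+FGF2, 0, 4.71 and 0 in FGF2, 7.59, 0 and 7.93 in DCA and 0, 0 and 6.29 in control explants. These values stand for 51 reads over all 24 libraries, 0 to 10 reads in each, and 8 libraries had any. At this depth a difference between treatments was not detectable, and a count of 0 still allows up to 3 reads in a library, counting error only.

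SALL4 was highest in DCA+FGF2 explants at 48 h, and its group means lay within a narrow span, from 1613 ± 69.8 normalized counts there down to 1056 ± 154 in control explants at 48 h (SD, n = 3 each). It had 1654, 1653 and 1533 normalized counts in DCA+FGF2 explants at 48 h, against 1155, 1245 and 1195 in FGF2 explants. It had 1176, 1531 and 1491 in DCA explants, against 1209, 1060.2 and 899.9 in control explants. DCA+FGF2 and FGF2 did not overlap, whereas the first DCA replicate lay within the control values. DCA+FGF2 exceeded FGF2 for SALL4 by 0.43 ± 0.11 (limma adjusted p = 0.0033). DCA alone gave 0.41 ± 0.11 (adjusted p = 0.0089), not called in a fit of the 2 groups alone (0.082) or without the third control replicate (0.069). The interaction was 0.02 ± 0.16 (95% interval -0.31 to 0.36, adjusted p = 0.94). The difference of DCA+FGF2 from control was 0.62 ± 0.11 (adjusted p = 9.9e-05).

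At 24 h SALL4 had 1512, 1306 and 1466 normalized counts in DCA+FGF2 explants and 1619, 1278 and 1349.8 in FGF2 explants. It had 1375, 1351 and 1251 in DCA explants and 1305, 1114 and 1089 in control explants. Groups overlapped throughout, apart from DCA+FGF2 and control, which were separated by a narrow gap. That difference was 0.29 ± 0.11 (adjusted p = 0.046), a call that was lost in 4 of 6 fits with a library left out, without the filter on low counts (0.061) and in a fit of those groups alone (0.062). FGF2 differed from control by 0.27 (95% interval 0.03 to 0.51, adjusted p = 0.079; 0.039 without the first control replicate, and just under the threshold without the second FGF2 replicate) and DCA from control by 0.18 (adjusted p = 0.28). No change over time was called for SALL4. For DCA+FGF2 against control, 2 of 5 members were called at 48 h, against 54.5% of all tested genes, and 3 of 5 at 24 h, against 42.2%. In the order of means, DCA+FGF2 at 48 h was followed by DCA+FGF2 at 24 h, FGF2 at 24 h, DCA at 48 h and DCA at 24 h, then FGF2 at 48 h, control at 24 h and control at 48 h. DCA+FGF2 at 48 h did not overlap its neighbour, and DCA at 24 h lay just above FGF2 at 48 h (lowest 1251, highest 1245). Groups further apart in the order did overlap. FGF2 at 24 h reached 1619, above the lowest DCA+FGF2 library at 48 h (1533). Control at 24 h reached 1305, above the lowest DCA library at 24 h.

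At 48 h, marker sums also differed where MYC and SALL4 were higher. In DCA explants at 48 h the RPE markers summed to 86651 to 173470 normalized counts, against 239416 to 255472 in control explants, with 9 of 12 lower and 1 higher. Endothelial markers summed to 12990.1 to 28847 in DCA explants, against 31188 to 47309.5 in control explants, with 7 of 7 lower. Among all genes, 16.9% were higher and 17.1% lower in that comparison. Blood and macrophage markers summed to 29418 to 37828 in DCA explants, against 46877 to 68709.9 in control explants, with 6 of 8 lower and 1 higher. Periocular mesenchyme markers summed to 70707 to 88413, against 72499.6 to 78198, with 3 of 10 lower and 0 higher. Between DCA+FGF2 and FGF2 at 48 h, 9 of 10 mesenchyme markers were higher (25.4% higher and 27.4% lower among all genes). RPE markers summed to 45192 to 50478 in DCA+FGF2 explants, against 58089.9 to 85884 in FGF2 explants, with 3 of 12 higher and 5 lower. Lens and surface ectoderm markers summed to 1471 to 1713 in DCA+FGF2, 444 to 597 in FGF2, 1032 to 1334 in DCA and 518 to 618 in control explants, with KRT5 at 0 in every group. The sums were higher with DCA than without it, and 2 of 5 tested were called higher in DCA+FGF2 than in FGF2 explants and 2 in DCA than in control explants, where 1 was lower. Of 8 neural crest and muscle markers, 1 was higher and 2 were lower in DCA than in control explants at 48 h. Of 10 retinal progenitor markers, 2 were higher and 4 lower in that comparison, and of 7 tested retinal neuron markers 1 was higher and 2 lower. At 24 h, when MYC was also higher with DCA, 2 of 12 RPE markers were lower in DCA than in control explants. Of 8 blood and macrophage markers 4 were then lower and 1 higher, and of 10 progenitor markers 2 were lower and 1 higher. Of 7 tested retinal neuron markers 2 were higher and 0 lower. Of 5 tested lens and surface ectoderm markers 1 was higher and 0 lower. No mesenchyme, endothelial or neural crest and muscle marker was called (9.48% lower and 10.6% higher among all genes). The part of these cells in the MYC and SALL4 results was not tested.

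The partners and regulators of MYC proteins showed members in both directions. Of 22 names on that list, which include aliases of the same gene, 17 had a row and passed the filter. In FGF2 explants at 48 h, 6 were higher and 4 lower than in control explants, with a median log2 difference of 0.05 and 26.9% higher and 27.7% lower among all genes. AURKA, a mitotic kinase that also stabilises the MYCN protein, stood at 2.12 ± 0.18 (limma adjusted p = 2.1e-09), and FBXW7, which targets MYC proteins for degradation, at 1.54 ± 0.17 (adjusted p = 7.4e-08). The deubiquitinase USP28 rose by 0.69 and the coactivator TRRAP by 0.45. MXD4 and MXI1 compete with MYC proteins for MAX, and MXD4 fell by 0.94 while MXI1 fell by 0.52 (adjusted p = 3.4e-06 or less).

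With DCA, USP36 and PIM1 led the partner genes. USP36, a nucleolar deubiquitinase that stabilises MYC, had 8334, 7293 and 7284 normalized counts in DCA explants at 48 h, against 4127, 4092 and 4191 in control explants, a difference of 0.88 ± 0.08 (adjusted p = 5.1e-08). In the presence of FGF2 it had 7717, 8497 and 7221 in DCA+FGF2 explants, against 3740.3, 3729 and 4052 in FGF2 explants (1.02 ± 0.08, adjusted p = 6.2e-10). Neither pair of groups overlapped. The kinase gene PIM1, whose product also stabilises MYC, had 2809.5, 914 and 1329.6 in DCA explants, against 494, 502 and 573 in control explants (1.53 ± 0.26, adjusted p = 0.00014). These groups did not overlap, and the first DCA replicate was the highest of its group, as it was for MYC. Without that replicate the PIM1 difference was 1.08 ± 0.20 (adjusted p = 0.00045). Of the 17 genes, 3 were higher and 1 was lower in DCA than in control explants at 48 h, with a median of 0.06 (16.9% higher and 17.1% lower among all genes). Between DCA+FGF2 and FGF2, 6 were higher and 6 lower, with TRRAP (-0.58), AURKA (-1.14) and USP28 (-0.55) among the lower ones and a median of 0.09 (25.4% higher and 27.4% lower among all genes).

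Most genes on a list of known MYC targets were higher at 48 h in FGF2 explants, and again in DCA explants, than in control explants. Of the 60 targets listed, 49 had a row and passed the filter, and the counts of targets refer to those 49. In FGF2 explants at 48 h, 41 were higher and 1 lower than in control explants. The median of the 49 was 0.45, against -0.02 for all genes, of which 26.9% were higher and 27.7% lower. The DNA repair gene UNG (2.55 ± 0.12, adjusted p = 2.6e-13), the replication helicase gene MCM5 (2.16 ± 0.14, adjusted p = 2.9e-11) and the mitotic kinase gene PLK1 (2.17 ± 0.19, adjusted p = 3.3e-09) were among the leading ones, and their products also act in dividing cells generally. FARSA, a phenylalanine tRNA synthetase subunit, rose by 0.79 ± 0.07 (adjusted p = 1.5e-09), and the folate carrier SLC19A1 was the gene that fell (-0.46, adjusted p = 0.00014). MYC itself differed by -0.07 in that comparison and MYCN by 1.28.

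In DCA explants at 48 h, 29 of the 49 targets were higher and 2 lower than in control explants. The median of the 49 was 0.25, against -0.03 for all genes, of which 16.9% were higher and 17.1% lower. NOP2, a ribosomal RNA methyltransferase, had 5852, 4368 and 4454 normalized counts in DCA explants, against 3098, 2750.2 and 2789 in control explants. The groups did not overlap, and the first DCA replicate was again the highest. NOP2 rose by 0.75 ± 0.08 (adjusted p = 9.9e-07), the ribosomal RNA processing factors RRP9 and RRP12 by 0.77 ± 0.09 (adjusted p = 3e-06) and 0.55 ± 0.07 (adjusted p = 3.1e-06), and the coactivator PPRC1 by 0.80 ± 0.11 (adjusted p = 2.1e-05). Without that library, 22 targets were higher and 1 was lower, with a median of 0.22. At 24 h, when MYC was already called higher with DCA, 4 targets were higher and 8 lower, with a median of -0.05 (10.6% higher and 9.48% lower among all genes).

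Many of the targets were lower with both agents than with FGF2 alone at 48 h. Between DCA+FGF2 and FGF2 at 48 h, 2 of 49 were higher and 30 lower, with a median of -0.28 (25.4% higher and 27.4% lower among all genes), while MYC was higher and MYCN and MYCL were lower in the same explants. UNG fell by 1.50, MCM5 fell by 1.02, PLK1 fell by 1.38 and the ribosome assembly gene PES1 fell by 0.40 (adjusted p = 2.6e-06 or less). The kinase gene MAP3K6 was higher (1.76 ± 0.27, adjusted p = 1.4e-05). The interaction at 48 h was lower for 41 of 49 and higher for 0 by limma, with a median of -0.54, against 15.0% lower and 15.1% higher among all genes. At 24 h FGF2 explants had 15 targets higher and 2 lower than control explants (15.5% higher and 14.3% lower among all genes). DCA+FGF2 explants at 24 h had 2 higher and 14 lower than FGF2 explants (18.1% and 17.8% among all genes). Compared with control, DCA+FGF2 explants at 48 h had 26 targets higher and 5 lower, with a median of 0.23 (27.1% higher and 27.4% lower among all genes). Retinal progenitor markers and MYC targets were both higher with FGF2 and both lower when DCA was added at 48 h, and the part of progenitor cells in the target counts was not tested.

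**Figure D3:**
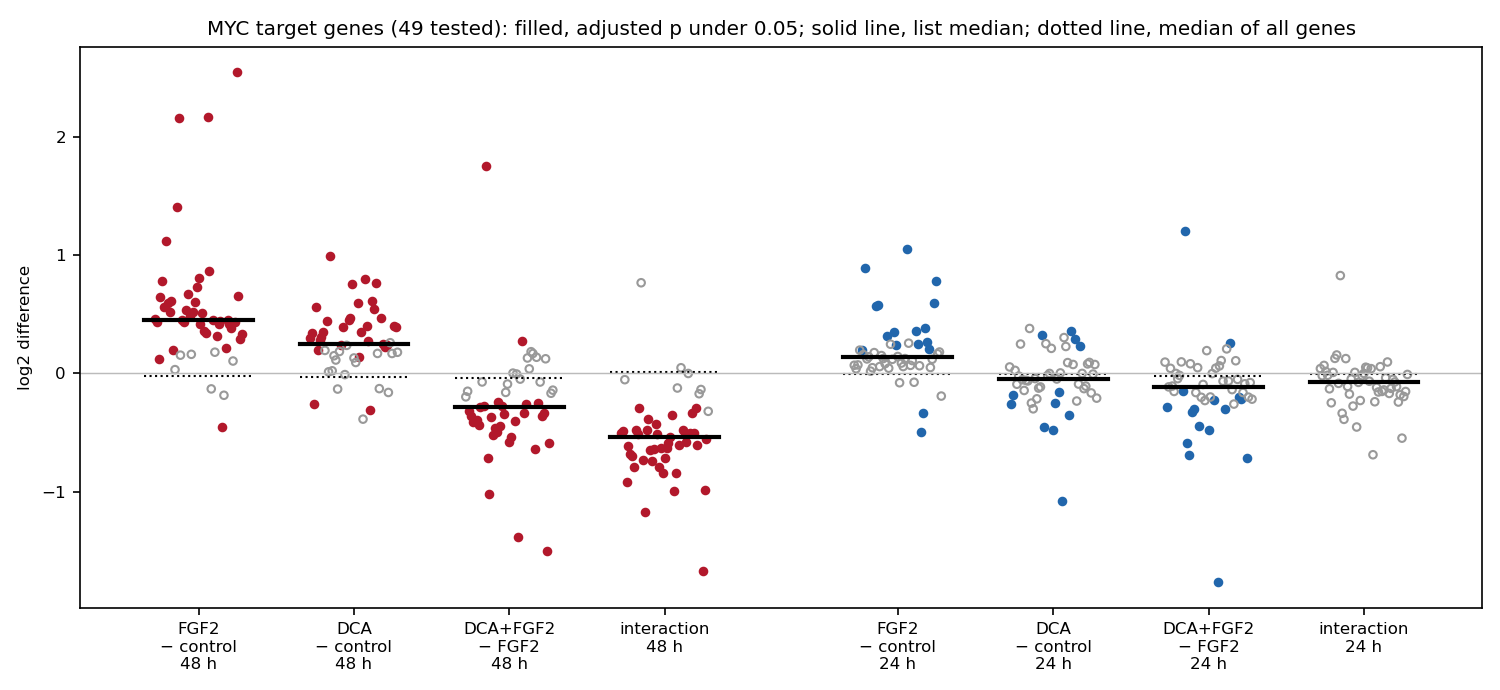
Log2 differences (y axis) of 49 MYC target genes, 1 point a gene, for FGF2 minus control, DCA minus control, DCA+FGF2 minus FGF2 and the interaction at 48 h (left) and 24 h (right). Filled points have a limma adjusted p under 0.05, solid lines are the medians of the 49 genes and dotted lines those of all tested genes; at 48 h the medians are 0.45, 0.25, -0.28 and -0.54.

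Genes of the LIN28 and let-7 pathway were more often higher than lower in FGF2 explants at 48 h. Of 29 names listed, aliases included, 25 had a row and passed the filter. Of these 25, 12 were higher and 6 lower than in control explants, with a median of 0.21 (26.9% higher and 27.7% lower among all genes). IGF2BP3, an mRNA-binding protein repressed by let-7 in mammals, had 17247, 16319 and 17509 normalized counts in FGF2 explants at 48 h, against 8279, 8513 and 8081 in control explants (1.04 ± 0.05, adjusted p = 1.7e-12). The neural RNA-binding protein MSI1 (1.09 ± 0.07), the chromatin protein HMGA1 (1.16 ± 0.08) and the cell cycle phosphatase CDC25A (1.49 ± 0.12) rose as well (adjusted p = 6.8e-10 or less). On the other side stood the growth factor IGF2 (-0.96 ± 0.26, adjusted p = 0.0036), ARID3A (-0.49) and DICER1, the enzyme that cuts microRNA precursors (-0.35 ± 0.12, adjusted p = 0.02). MicroRNAs themselves were not analysed here.

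When DCA was added to FGF2, 14 of 25 were lower and 4 higher at 48 h, with a median of -0.30 (27.4% lower and 25.4% higher among all genes). IGF2BP3 had 8975, 9004 and 8892 normalized counts in DCA+FGF2 explants, below each of the FGF2 libraries (-0.93 ± 0.05, adjusted p = 1.4e-11). TRIM71, the let-7 target first known as lin-41 in worms, had 179.8, 268 and 264 in DCA+FGF2 explants, against 881, 747 and 1034 in FGF2 explants (-1.91 ± 0.21, adjusted p = 9.8e-08). These groups did not overlap for either gene. MSI1 fell by 1.17 (adjusted p = 2.1e-11) and ARID3B, a DNA-binding protein, fell by 0.99 (adjusted p = 3.8e-07).

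Other members of the pathway did not follow LIN28B in that comparison. HMGA1 had 6607, 6371 and 5826 normalized counts in DCA+FGF2 explants at 48 h, against 4179, 4049 and 4321 in FGF2 explants, and rose further (0.58 ± 0.08, adjusted p = 2.4e-06). The cyclin gene CCND2 rose by 0.35 (adjusted p = 0.00017), IGF2 by 1.25 (adjusted p = 0.00036) and IGF2BP2 by 0.29 (adjusted p = 0.0064). DCA alone gave 6 higher and 2 lower at 48 h (16.9% and 17.1% among all genes), led by HMGA1 (0.80 ± 0.08, adjusted p = 2.4e-07) and the microRNA export factor XPO5 (0.48 ± 0.06, adjusted p = 1.3e-06). MSI1 (-0.47) and TRIM71 (-0.76) were the lower ones, and without the first DCA replicate 4 were higher and 5 lower. The median was 0.03 with that replicate. The interaction was called lower for 10 and higher for 1 of 25 at 48 h, with a median of -0.25 (15.0% lower and 15.1% higher among all genes). At 24 h, 8 of 25 were higher and 0 lower with FGF2 by limma, with a median of 0.14 and 15.5% higher and 14.3% lower among all genes.

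**Figure D4:**
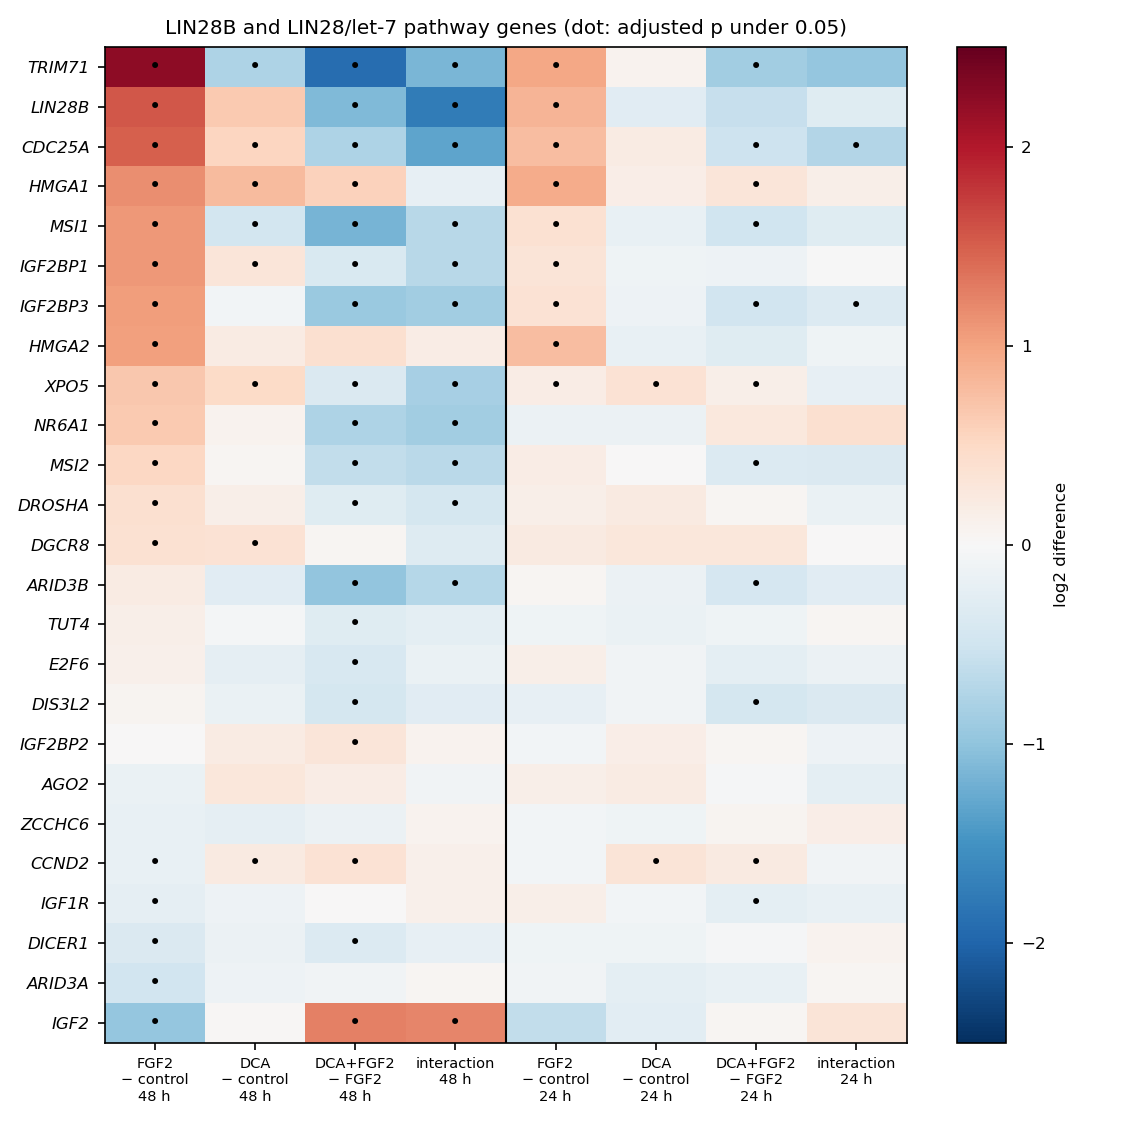
Log2 differences (colour, red for higher and blue for lower) of LIN28B and 24 genes of the LIN28 and let-7 pathway (rows) in 4 comparisons at 48 h (left) and 24 h (right), with a dot for a limma adjusted p under 0.05. Rows are ordered by FGF2 minus control at 48 h, so the genes at the top are red there by this ordering. Most of them are blue for DCA+FGF2 minus FGF2 at 48 h, a comparison that uses the same FGF2 libraries. HMGA1 is red in both comparisons and IGF2 has the opposite colours.

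Relatives of KLF4 and SALL4 were led by KLF2, a zinc finger factor that can replace KLF4 in mouse reprogramming. KLF2 had 2087, 2183 and 1773 normalized counts in DCA+FGF2 explants at 48 h, against 317, 393 and 375 in FGF2 explants (2.48 ± 0.16, adjusted p = 8e-11). It had 1019, 691 and 809 in DCA explants, against 279.96, 342 and 382 in control explants (1.32 ± 0.16, adjusted p = 3.9e-06). Neither pair overlapped. KLF2 is also known from endothelium, and of 7 endothelial markers 7 were lower in DCA than in control explants and 2 were higher in DCA+FGF2 than in FGF2 explants at 48 h; their part in the KLF2 result was not tested. At 24 h KLF2 likewise exceeded control with DCA (1.75 ± 0.16, adjusted p = 4.8e-07). Of 19 listed relatives, 14 were tested, and 8 were higher and 1 lower in DCA+FGF2 than in FGF2 explants at 48 h, with a median of 0.75 (25.4% higher and 27.4% lower among all genes). KLF6 (1.75 ± 0.15), KLF15 (1.23 ± 0.13) and KLF10 (1.04 ± 0.11) followed KLF2 (adjusted p = 1.1e-07 or less), and SALL1, a kidney and limb development factor, fell (-0.85 ± 0.16, adjusted p = 0.00012). In DCA explants 5 were higher and 2 lower than in control explants at 48 h, with a median of 0.32 (16.9% and 17.1% among all genes). FGF2 alone gave 1 higher and 6 lower at 48 h, with a median of -0.38, among them SALL3 (-2.06 ± 0.34, adjusted p = 2.1e-05) and KLF15 (-0.91 ± 0.13, adjusted p = 4e-06). These are 7 of 14 called, near the 54.6% called among all genes. The interaction was higher for 7 of 14 and lower for 0 by limma, with a median of 0.71, against 15.1% higher among all genes.

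Other factors of the pluripotency network were divided. Of 36 names, 23 were in the table and 17 were tested, and NANOG, PRDM14, ESRRB, TFCP2L1, LEFTY1 and NR0B1 lay under the mean of 10. In FGF2 explants at 48 h, 7 were higher and 7 lower than in control explants, with a median of 0.12 (26.9% higher and 27.7% lower among all genes). SOX2, which also marks neural progenitors, rose by 5.56 ± 0.26 (adjusted p = 3.2e-13), and DNMT3B, a DNA methyltransferase, by 2.10 ± 0.10 (adjusted p = 5.6e-13). GDF3, a TGF-beta family ligand, had 9214, 8243 and 7575 normalized counts in FGF2 explants at 48 h, against 504, 500.1 and 485 in control explants (4.06 ± 0.19, adjusted p = 4.2e-13). OTX2 (-1.17 ± 0.08), which also specifies RPE, and GLIS1 (-2.16 ± 0.16), a zinc finger factor, were lower (adjusted p = 2.3e-10 or less). With DCA added to FGF2, SOX2 fell by 1.96, GDF3 fell by 2.29 and DNMT3B fell by 0.97, whereas GLIS1 rose by 2.87 (adjusted p = 1.4e-06 or less). In that comparison 7 of 17 were higher and 8 lower, with a median of -0.54 (25.4% and 27.4% among all genes). DCA alone gave 5 higher and 4 lower at 48 h, with a median of 0.28 (16.9% and 17.1% among all genes). KLF2, KLF5, SALL1 and SALL3 stand in both this list and the list of relatives. SOX2 is also one of the progenitor markers, OTX2 is one of the RPE markers, and FOXD3 is one of the neural crest and muscle markers.

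Across the 24 libraries, the 5 tested members did not share a single pattern. Among their 10 pairs, Pearson r of the log2 levels ran from -0.65 for MYC with MYCN to 0.59 for MYCN with LIN28B. After the group means were removed these became -0.22 and 0.11. The 10 pairs then ran from -0.43 for MYC with SALL4 (0.45 before) to 0.40 for LIN28B with SALL4 (0.24 before). Of 10100 genes with a symbol and a mean of at least 100, MYC was most alike NTN4 (r = 0.93), APOA1 (0.92) and SLC26A5 (0.91). MYCN was most alike ELAVL4, HNRNPA2B1 and MBD3 (0.93 each), and MYCL was most alike SOX4 (0.89), GDPD5 (0.87) and STRBP (0.86). LIN28B was most alike PARP1 (0.85), POP5 (0.85) and ZC3H15 (0.84), and SALL4 was most alike B4GALT7 (0.85), DISC1 (0.80) and PCYOX1L (0.80). These correlations describe 24 libraries that fall into 8 groups, and all genes of a library share its size factor. Within groups, after removal of group means, r of the members with these most alike genes ran from -0.17 for MYCL with STRBP to 0.72 for MYC with NTN4. For MYCN it was 0.18 with ELAVL4, 0.21 with HNRNPA2B1 and 0.08 with MBD3. ELAVL4 is also one of the retinal neuron markers.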

How the data were processed

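The deposited table holds 1 normalized read count per gene and library, a signal value that the authors made by dividing counts by a size factor per library. The submitters' processing notes name DESeq2 1.34.0 and StringTie 2.1.4, then STAR 2.7.5b, Trim Galore 0.6.4 and, as genome build, GRCg6a. Strand and counting settings were not given in the sources used here. Since StringTie is named, the counts may be estimates. Libraries were made, per the labels' protocols, with a directional kit for poly(A) RNA, 100 ng of input and 13 cycles of PCR. Dividing by each library's step returned whole reads for 100% of values within 0.001 of a read; in 2 libraries, a control and a DCA library at 48 h, the step (1.01 and 1.00) is so close to 1 that the check says little. These reads gave depth and the edgeR and DESeq2 alternatives. No sequences or coordinates were used, and levels are not scaled by transcript length, so genes were not compared with each other.

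Tests used limma-trend on log2(normalized count + 1) with 1 mean per group (8 groups, 16 residual degrees of freedom), for 15001 genes with a mean of at least 10. This scale understates the change of low genes. Benjamini-Hochberg adjustment ran over all genes in each of 18 comparisons. The ± after a log2 difference is its SE. Replicates are biological per the labels, each a pool of 3 explants. The members and lists were chosen with earlier results of these data known. Named genes are all members, up to 4 genes per list and direction with the smallest adjusted p in the comparison described, their values in related comparisons, and the 3 most correlated genes per member. The 5 gene lists and 8 marker lists came from general knowledge. One tested gene of the LIN28 and let-7 list is counted with its list but is not reported here by itself. The fit was tested on simulated data for FGF2 against control at 24 h. There limma recovered 30 of 62 changes of 1.5-fold, 39 of 60 of 2-fold and 64 of 74 of 4-fold. Of its 143 calls, 10 were false, and changes of 1.5-fold to 2-fold were often missed in the simulation. Far fewer genes changed in the simulation than in the data, where limma called 4466 genes in that comparison. The adjusted threshold was therefore stricter in the simulation, and its recovery rates do not carry over to the data. Alternatives were another pseudocount (5), no filter (21118 genes), TMM scaling, edgeR and DESeq2, the compared groups alone, a replicate block, and each library left out. The edgeR version was 4.0.16, DESeq2 was at 1.42.0 and limma at 3.58.1, under R 4.3.3.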

Additional observations from a re-analysis of the deposited data

Results flagged for a closer look

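Some effects differed between conditions by a test of the difference itself (limma, adjusted over all tested genes). At 48 h the DCA effect differed between explants with and without FGF2, the difference being -1.32 for MYCN (adjusted p = 1.1e-05), -0.62 for MYCL (adjusted p = 0.001) and -1.75 for LIN28B (adjusted p = 0.001) on the log2 scale. MYCN averaged 790.2 ± 193 normalized counts in DCA+FGF2, 2138 ± 113 in FGF2, 802 ± 85.7 in DCA and 884 ± 65.6 in control explants (SD, n = 3 each). LIN28B averaged 114 ± 24.9, 251 ± 73.9, 129.5 ± 14.3 and 83.1 ± 17.2 in the same order of groups. The FGF2 effect also differed between 48 h and 24 h, by 1.38 for MYCN (adjusted p = 7.2e-06) and 0.77 for MYCL (adjusted p = 0.00013).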

How the results depend on the processing

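Of 630 member values recomputed under other settings, 617 kept their direction and side of the threshold, 8 lost and 4 gained a call, and 1 that was not called changed its sign. With 1 library left out, 607 of 660 kept both, 25 lost and 9 gained a call, and 19 that were not called changed their sign. No called value reversed in these fits. Without the filter, in the compared groups alone and with a replicate block, the log2 differences could not change by design. There, only the side of the threshold could change. The calls that were lost are named beside their results, and the cause was not tested. With a library left out, the count of members called ranged from 1 to 4 for FGF2 against control at 24 h (3 with all libraries; 1 without the second control or the first FGF2 replicate) and from 0 to 1 for DCA+FGF2 against DCA at 24 h (1 with all). In fits of the compared groups alone, with fewer samples, 1 member rather than 3 was called for DCA against control at 48 h and 1 rather than 2 for 48 h against 24 h in DCA+FGF2 explants.

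Over all genes, the interaction at 24 h had 438 calls by limma, 818 by DESeq2 and 230 to 572 with a library left out. The lowest counts came without the second DCA+FGF2 replicate (230) and the first FGF2 replicate (238). The time effect in DCA explants had 3809 calls, and 2318 in a fit of those groups alone. The difference of the DCA effect between times had 736 calls, 1233 by DESeq2, 385 in a fit of those groups alone and 360 to 1058 with a library left out; it fell by over 1.5 times without the first control replicate at either time (439 at 24 h, 434 at 48 h), the first DCA replicate at either time (360 at 24 h, 464 at 48 h) or the second DCA replicate at 24 h (474).

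The replicate numbers are shared between groups, but same-numbered libraries did not deviate together (correlations of -0.09 to 0.10), so the numbers were not used to pair the samples. Low correlations do not show that the samples were unpaired. Since all groups hold the same replicate numbers, a replicate block cannot move a log2 difference, only its SE and p. It changed no member call. Scaling by TMM moved the median of all genes by less than 0.1 in each comparison. With 3 libraries a group, the LIN28B difference for DCA alone at 48 h missed the threshold in the main fit, and LIN28A had few reads. How far the number of libraries or the depth limited these results was not tested.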
